A study of Arabidopsis thaliana with 30 samples.

Results

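The 10 genes described here serve protein folding in the endoplasmic reticulum (ER) of Arabidopsis thaliana and were followed through a study of submerged seedlings. They were chosen by gene ID, as the rows of BIP1 (AT5G28540), BIP2 (AT5G42020), BIP3 (AT1G09080), SHD (AT4G24190), CNX1 (AT5G61790), CRT1A (AT1G56340), CRT1B (AT1G09210), CRT3 (AT1G08450), PDIL1-1 (AT1G21750) and bZIP60 (AT1G42990), which makes 10 of the 32833 genes in each deposited table. All 10 passed the filter on low counts in both tables. The choice was made with earlier results of these data known.

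The data are raw counts per gene from poly-A RNA of whole seedlings labelled as 6 days old (the protocol also names germinating seeds), in 30 libraries, with 3 libraries in each of 10 groups. The groups form 2 sets with separate wild-type controls. In the bak set, the double T-DNA mutant bak1-3 bkk1-1 and its wild type Col (Columbia) were each submerged or mock-treated. In the tcp set, the Crispr lines tcpq and tcp21 and their own Col were each submerged or mock-treated. The stated purpose was to compare gene expression of these mutants, which are sensitive to submergence, with that of Col. BAK1 and BKK1 are co-receptor kinases at the plasma membrane, and TCP21 is a class I TCP transcription factor. The labels used here give neither the duration of submergence nor the genes edited in tcpq.

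Library totals ran from 19662531 to 27417759 counts in the bak set, while those of the tcp set ran from 17466180 to 33957452. Genes named in the genotypes were checked first. BAK1 averaged 28.01 ± 1.76 CPM (the counts of a gene scaled to a common library size) in mock bak1-3 bkk1-1, against 78.0 ± 8.67 CPM in mock Col, and BKK1 averaged 13.0 ± 1.87 CPM in the same mutant libraries, against 36.4 ± 6.94 CPM in mock Col (SD, n = 3 each). TCP21 averaged 22.1 ± 1.92 CPM in mock tcpq and 29.9 ± 2.76 CPM in mock tcp21, against 92.9 ± 9.29 CPM in mock Col. Under submergence it averaged 60.7 ± 3.66 CPM in tcpq and 23.3 ± 3.94 CPM in tcp21, against 78.2 ± 5.01 CPM in Col. The genotype field of 1 library, mock Col 1 of the tcp set, names bak1-3 bkk1-1, while its title and strain say Col. It was kept as Col, and its levels of the 10 genes lay beside those of the other Col mock libraries. That does not settle its genotype, since 8 of the 10 genes were not called between mock bak1-3 bkk1-1 and mock Col. The BAK1 and BKK1 levels of that library are not given here. Nothing states that replicates are separate cultures, so the p-values cover only the spread among these libraries, and that spread may be technical. In such whole-seedling RNA, fewer cells of a type and less RNA per cell cannot be told apart.

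Secreted and membrane proteins of plants fold in the ER. BIP proteins, the ER members of the HSP70 family, bind unfolded chains, SHD is the ER member of the HSP90 family, calnexin (CNX1) and calreticulins (CRT1A, CRT1B and CRT3) hold glycoproteins through their sugar chains, and the protein disulfide isomerase PDIL1-1 forms disulfide bonds. When folding capacity falls short, the membrane kinase IRE1 splices bZIP60 mRNA and the membrane-anchored factor bZIP28 moves to the nucleus, and both factors raise chaperone genes. This is the unfolded protein response, in which BIP3 is a common marker because it is nearly silent in unstressed plants. Counts per gene do not separate spliced from unspliced bZIP60 mRNA.

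The ER stress element and its variant are shown because they are the sites through which bZIP28 and bZIP60 are known to act, and because they are what most of these genes share in sequence. The element ERSE was searched as CCAATNNNNNNNNNNCACG and its variant ERSE-II as ATTGG and CCACG with 1 base between them, on both strands, in the 500 bases before the start codon. Sequences come from the RefSeq genome of build TAIR10.1, are written 5′ to 3′ on the strand of the gene, and have the fixed letters of the motif, or of its reverse complement, in capitals.
BIP1, ERSE-II, chr5:10543427-10543447, minus strand, in a 5′ UTR exon: agataATTGGtCCACGtcatc
BIP2, ERSE-II, chr5:16810658-16810678, minus strand, in a 5′ UTR exon: agataATTGGtCCACGtcatc
BIP3, distal ERSE, chr1:2932001-2932029, minus strand, upstream of the annotated gene: tgtcaCGTGtctgcttgtgATTGGgtact
BIP3, proximal ERSE, chr1:2931923-2931951, minus strand, upstream of the annotated gene: gcttaCGTGtcaagaagtgATTGGagagg
SHD, ERSE, chr4:12556057-12556085, minus strand, upstream of the annotated gene: ttgctCCAATacaaaactacCACGtggct
CNX1, ERSE, chr5:24829856-24829884, minus strand, in a 5′ UTR exon: aatgaCGTGgcctgttatgATTGGttagc
CRT1A, ERSE, chr1:21092754-21092782, minus strand, upstream of the annotated gene: tctggCGTGtatttaactaATTGGttaac
CRT1B, ERSE, chr1:2976810-2976838, minus strand, in a 5′ UTR exon: tctgaCGTGtcggttacctATTGGattac
PDIL1-1, distal ERSE, chr1:7645418-7645446, plus strand, upstream of the annotated gene: gatatCGTGacgcttgtacATTGGtgcgg
PDIL1-1, proximal ERSE, chr1:7645616-7645644, plus strand, in a 5′ UTR exon: aatacCCAATtagagatagcCACGtggat

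At least 1 of these elements was found in 8 of the 10 genes, against 1.17% of the 27443 protein-coding genes searched in the same way. ERSE itself was in 6 of the 10, against 1.07% of all genes, and ERSE-II was in BIP1 and BIP2, against 0.0984%. The stretches around ERSE-II printed for BIP1 and BIP2 have the same letters. CRT3 and bZIP60 had no match in this window, which says only that these letters are not there. The window was chosen after a first search of the 300 bases before the annotated gene start, which found a match in 4 of the 10 genes, BIP3, SHD, CRT1A and PDIL1-1, against 0.805% of all genes. The repeat GAAGAAGAA, the core of the TL1 element, lay in the windows of BIP1, BIP2 and CNX1 and in 17.1% of all windows. The class I TCP site GGNCCCAC was in 0 of the 10 windows and in 1.53% of all windows.

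**Figure D1:**
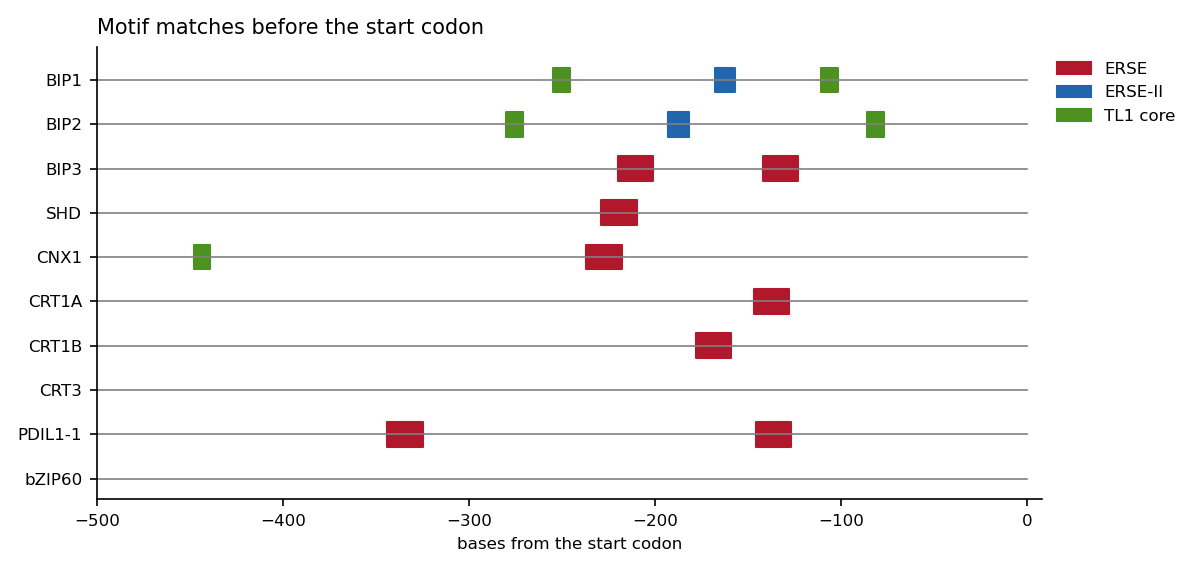
Positions of the motif matches in the 500 bases before the start codon of each of the 10 genes. The x axis gives bases from the start codon, red boxes are ERSE, blue boxes ERSE-II and green boxes the TL1 core, on either strand, and CRT3 and bZIP60 have no box.

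In mock seedlings the main ER chaperone genes were 2.40-fold to 4.79-fold higher in tcpq than in Col. Of the 10 genes, 7 were higher in tcpq than in Col and bZIP60 was lower, where 48.4% of all 20385 genes tested were called at an edgeR adjusted p below 0.05, 25.8% higher and 22.6% lower. The 7 were the main chaperones of the ER lumen and membrane, and their differences ran from 1.26 to 2.26 on the log2 scale. The median over the 10 genes was 1.31, against 0.0366 over all genes.

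BIP1 stood at 462, 465 and 522 CPM in the mock tcpq libraries, against 106, 113 and 119 CPM in the mock Col libraries. BIP2 stood at 390.2, 351 and 417 CPM in mock tcpq, against 74.1, 85.6 and 82.2 CPM in mock Col. The lowest tcpq library was thus far above the highest Col library for both genes. BIP1 was 4.29-fold higher (adjusted p = 3.99e-13) and BIP2 4.79-fold (adjusted p = 5.27e-17), which for BIP2 is 2.26 ± 0.09 on the log2 scale. All differences that follow are log2 values ± SE.

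The ER HSP90 gene SHD had 565, 539.8 and 612 CPM in mock tcpq, against 231, 225 and 220.0 CPM in mock Col, a difference of 1.34 ± 0.07 (adjusted p = 3.51e-15). CNX1 had 364, 376 and 397 CPM in mock tcpq, against 106, 108 and 113 CPM in mock Col, a difference of 1.79 ± 0.08 (adjusted p = 1.13e-16). For the calreticulin gene CRT1A the libraries read 356, 356 and 370.2 CPM in mock tcpq, against 140.5, 146 and 152 CPM in mock Col. The groups did not overlap for any of these chaperones, and the tcpq libraries of a gene lay close together. How often groups were apart among all genes was not counted. CRT1A differed by 1.30 ± 0.07 (adjusted p = 1.69e-15). Its close relative CRT1B differed by 1.32 ± 0.08 (adjusted p = 2.25e-14), with 240.0 ± 9.38 CPM in mock tcpq, against 95.9 ± 3.31 CPM in mock Col (SD, n = 3 each). PDIL1-1 differed by 1.26 ± 0.08 (adjusted p = 4.41e-13), with 167 ± 9.95 CPM in mock tcpq, against 69.7 ± 6.33 CPM in mock Col.

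BIP3, CRT3 and bZIP60 were not among them. BIP3, the stress-inducible BIP, had 6.01, 7.75 and 8.92 CPM in mock tcpq, against 9.30, 8.37 and 8.83 CPM in mock Col, and these groups overlapped. Its difference was -0.23 ± 0.20 (adjusted p = 0.372), so no difference of BIP3 was detectable while BIP1 and BIP2 were higher. CRT3, a calreticulin of land plants known for its role in folding the immune receptor EFR, had 39.6, 41.1 and 39.7 CPM in mock tcpq, against 45.3, 45.8 and 41.6 CPM in mock Col. The tcpq libraries of CRT3 lay just below those of Col, and the difference of -0.14 ± 0.08 (adjusted p = 0.154) was not called, though it was in a fit of only the groups compared (adjusted p = 0.0421). The transcription factor gene bZIP60 had 33.1, 36.1 and 32.7 CPM in mock tcpq, against 56.2, 54.4 and 59.6 CPM in mock Col. It was lower in every tcpq library, by 0.74 ± 0.10 (adjusted p = 7.05e-07). None of the calls in mock tcpq was lost when any 1 library was left out.

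**Figure D2:**
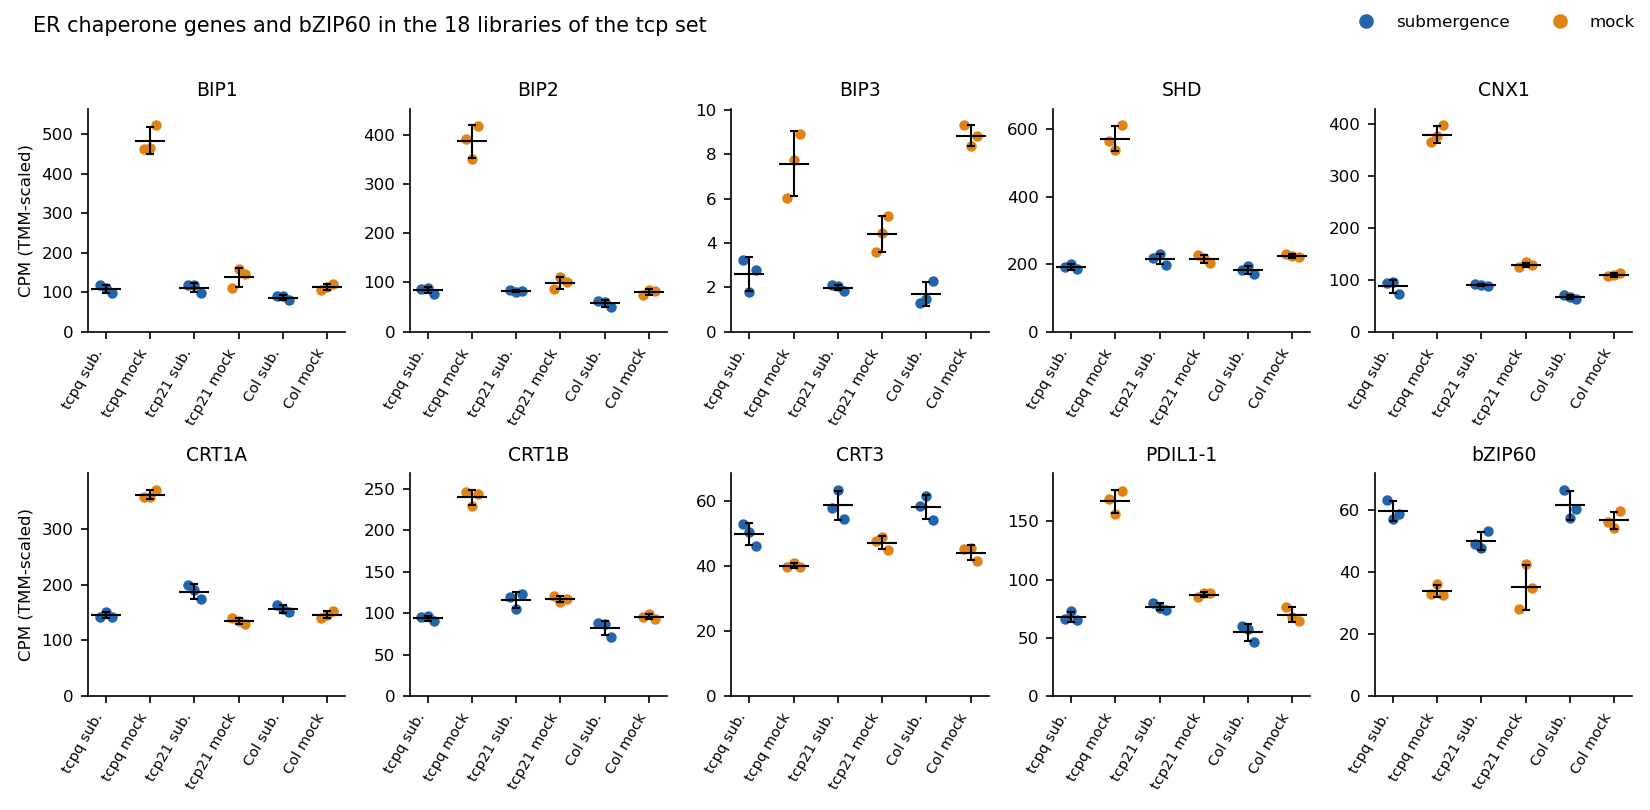
CPM of each gene in the 18 libraries of the tcp set, scaled by TMM factors, with 1 dot per library and the mean ± SD of each group (n = 3) as a bar with whiskers. In 7 panels the mock tcpq libraries stand above all others of the set, while bZIP60 is lowest in mock tcpq and mock tcp21 and BIP3 is low in every submerged group.

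Marker genes of other tissues also differed between mock tcpq and mock Col. All 6 genes of the leaf photosynthesis list were lower in tcpq, and their summed level lay between 23720 and 27500 CPM in tcpq, against 32100 to 38010 CPM in Col. Of 8 root markers 4 were higher, with sums of 79.0 to 85.1 CPM in tcpq, against 56.7 to 66.4 CPM in Col. Their part in the chaperone result was not tested.

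Submergence of tcpq brought the same chaperones down. All 10 genes were called in this response, 8 lower and 2 higher, against 63.4% of all genes, 30.6% lower and 32.8% higher. BIP1 fell to 118, 111 and 97.7 CPM in submerged tcpq, against the mock values given above, a change of -2.15 ± 0.11 (adjusted p = 7.52e-14). BIP2 fell by 2.198 ± 0.09 (adjusted p = 1.34e-17), CNX1 by 2.12 ± 0.08 (adjusted p = 5.34e-19), SHD by 1.58 ± 0.07 (adjusted p = 2.34e-17), CRT1A by 1.31 ± 0.07 (adjusted p = 2.72e-16), CRT1B by 1.35 ± 0.08 (adjusted p = 3.27e-15) and PDIL1-1 by 1.29 ± 0.08 (adjusted p = 7.44e-14). BIP3 fell too, to 3.25, 1.78 and 2.77 CPM, by 1.53 ± 0.22 (adjusted p = 8.24e-07). The 2 genes that rose were CRT3, with 53.1, 50.4 and 46.2 CPM in submerged tcpq and a change of 0.31 ± 0.08 (adjusted p = 0.00122), and bZIP60, with 63.3, 57.3 and 58.7 CPM and a change of 0.82 ± 0.10 (adjusted p = 7.34e-08). Submerged and mock tcpq libraries did not overlap for any of the 10 genes, but how many of all genes did likewise was not counted. All 6 leaf photosynthesis markers rose in the same comparison, and their sum lay between 42010 and 46050 CPM in submerged tcpq, a shift whose part in these changes was not tested.

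Under submergence little of the difference between tcpq and Col was left. In that comparison 4 of the 10 genes were higher in tcpq and 0 lower, against 16.5% of all genes, 8.70% higher and 7.82% lower. They were BIP2 with 0.55 ± 0.09 (adjusted p = 0.000112), CNX1 with 0.38 ± 0.08 (adjusted p = 0.00117), PDIL1-1 with 0.32 ± 0.09 (adjusted p = 0.00901) and BIP1 with 0.33 ± 0.11 (adjusted p = 0.0368). BIP2 had 86.0, 89.2 and 77.4 CPM in submerged tcpq, against 62.5, 60.3 and 49.8 CPM in submerged Col. The groups were apart for BIP2 by more than the spread within either, though the gap was small beside that in mock seedlings. SHD, with 0.07 ± 0.07 (adjusted p = 0.543), CRT1A, with -0.11 ± 0.07 (adjusted p = 0.305), and bZIP60, with -0.04 ± 0.10 (adjusted p = 0.822), were not called. Nor were BIP3, with 0.64 ± 0.26 (adjusted p = 0.0914), and CRT1B, with 0.19 ± 0.08 (adjusted p = 0.0891), though BIP3 was called without submerged Col 3 (adjusted p = 0.0281) or submerged tcpq 2 (adjusted p = 0.0346). CRT3, lower in every submerged tcpq library than in every submerged Col library at -0.22 ± 0.08 (adjusted p = 0.0516), was called by DESeq2 (adjusted p = 0.0426), and by edgeR without any 1 of 4 libraries (adjusted p from 0.036 to 0.0469). The call of BIP1 was lost without any 1 of 6 libraries, among them each submerged Col library (adjusted p up to 0.157), and that of PDIL1-1 without submerged Col 3 or submerged tcpq 2 (adjusted p up to 0.0959).

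The difference between the responses was tested as the interaction of genotype and submergence, which shares its Col and tcpq libraries with the comparisons above. Of the 10 genes 7 responded more negatively in tcpq than in Col and 2 less negatively or more positively, against 34.6% of all genes called, 17.1% negative and 17.5% positive. The interaction was -1.77 ± 0.15 (adjusted p = 4.57e-09) for BIP1, -1.71 ± 0.13 (adjusted p = 4.13e-11) for BIP2, -1.41 ± 0.11 (adjusted p = 6.37e-11) for CNX1, -1.41 ± 0.09 (adjusted p = 1.7e-12) for CRT1A, -1.27 ± 0.10 (adjusted p = 5.07e-11) for SHD, -1.13 ± 0.11 (adjusted p = 2.09e-09) for CRT1B and -0.94 ± 0.12 (adjusted p = 3.07e-07) for PDIL1-1. For bZIP60 it was positive at 0.70 ± 0.14 (adjusted p = 0.00033). It was positive for BIP3 as well, at 0.87 ± 0.33 (adjusted p = 0.0397), with a change of -1.53 ± 0.22 in tcpq against -2.40 ± 0.23 in Col, but that call was lost without any 1 of 8 libraries (adjusted p up to 0.135). CRT3, with -0.08 ± 0.11 (adjusted p = 0.611), was not called.

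Col of the tcp set showed smaller falls of most of these genes under submergence. Of the 10, 7 fell and 1 rose, against 50.0% of all genes called, 22.9% lower and 27.1% higher. The stress-inducible BIP3 fell most, with 1.29, 1.46 and 2.31 CPM in submerged Col, against 9.30, 8.37 and 8.83 CPM in mock Col, a change of -2.40 ± 0.23 (adjusted p = 1.17e-09). CNX1 had 71.1, 67.3 and 62.6 CPM in submerged Col, against 106, 108 and 113 CPM in mock Col, a change of -0.71 ± 0.08 (adjusted p = 2.36e-08). Submerged libraries lay below all mock libraries for both genes. BIP2 fell by 0.49 ± 0.09 (adjusted p = 8.51e-05), BIP1 by 0.38 ± 0.11 (adjusted p = 0.00483), PDIL1-1 by 0.35 ± 0.09 (adjusted p = 0.00105), SHD by 0.31 ± 0.07 (adjusted p = 0.000706) and CRT1B by 0.22 ± 0.08 (adjusted p = 0.0165). CRT3 rose by 0.40 ± 0.08 (adjusted p = 0.000133), with 58.5, 61.7 and 54.3 CPM in submerged Col. CRT1A, with 0.10 ± 0.07 (adjusted p = 0.219), and bZIP60, with 0.12 ± 0.10 (adjusted p = 0.343), were not called. The call of CRT1B was lost without mock Col 2 (adjusted p = 0.0582) or submerged Col 3 (adjusted p = 0.153).

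In tcp21 submergence raised 3 of the 10 genes and lowered 4, against 48.8% of all genes called, 24.1% higher and 24.7% lower. The genes that rose were bZIP60, with 49.0, 47.9 and 53.4 CPM in submerged tcp21, against 27.97, 42.7 and 34.8 CPM in mock tcp21, a change of 0.52 ± 0.10 (adjusted p = 0.000123), CRT1A with 0.47 ± 0.07 (adjusted p = 8.14e-07) and CRT3 with 0.31 ± 0.08 (adjusted p = 0.00158). BIP3 fell by 1.13 ± 0.24 (adjusted p = 0.000216), CNX1 by 0.53 ± 0.08 (adjusted p = 2.49e-06), BIP1 by 0.30 ± 0.11 (adjusted p = 0.0214) and BIP2 by 0.27 ± 0.09 (adjusted p = 0.0167). SHD (adjusted p = 0.963), CRT1B (adjusted p = 0.911) and PDIL1-1 (adjusted p = 0.0731) were not called, apart from PDIL1-1 with upper quartile factors (adjusted p = 0.0132) and without submerged Col 3 (adjusted p = 0.0416). The BIP1 call was lost in a fit of only the groups compared (adjusted p = 0.102), and without mock tcp21 2, mock tcp21 3 or submerged tcp21 3 (adjusted p up to 0.159). That of BIP2 was lost without mock tcp21 2 or submerged tcp21 2 (adjusted p up to 0.157). Of the 8 root markers 2 rose and 2 fell, and their sums were 69.4 to 75.8 CPM in submerged tcp21, against 119.9 to 129 CPM in mock tcp21. Their part in this response was not tested.

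The comparisons of tcp21 with Col share their Col libraries with those of tcpq. In mock seedlings 5 of the 10 genes were higher in tcp21 and 2 lower, against 46.8% of all genes called, 23.8% higher and 23.0% lower. BIP3 had 3.58, 4.46 and 5.20 CPM in mock tcp21, against 9.30, 8.37 and 8.83 CPM in mock Col, and was lower by 1.02 ± 0.21 (adjusted p = 0.000208). bZIP60 had 27.97, 42.7 and 34.8 CPM in mock tcp21, against 56.2, 54.4 and 59.6 CPM in mock Col, and was lower by 0.70 ± 0.10 (adjusted p = 2.49e-06). For both genes every tcp21 library lay below every Col library. The higher genes differed little, PDIL1-1 by 0.32 ± 0.08, BIP2 by 0.29 ± 0.09, BIP1 by 0.29 ± 0.11, CRT1B by 0.29 ± 0.08 and CNX1 by 0.24 ± 0.08, with adjusted p up to 0.0296. CRT1A at -0.11 ± 0.07 (adjusted p = 0.177), CRT3 at 0.10 ± 0.08 (adjusted p = 0.326) and SHD at -0.06 ± 0.07 (adjusted p = 0.517) were not called. Without mock tcp21 2 the number of genes called dropped to 4, as BIP1, BIP2 and CNX1 were lost. BIP1 was also lost in a fit of only the groups compared (adjusted p = 0.0595) and without mock Col 1, mock Col 2 or mock tcp21 3 (adjusted p from 0.0725 to 0.117), and BIP2 without mock Col 1 (adjusted p = 0.0614). Of the 8 root markers 4 were higher in mock tcp21, with sums of 119.9 to 129 CPM, against 56.7 to 66.4 CPM in mock Col, and 5 of 6 leaf photosynthesis markers were higher as well. Their part in this comparison was not tested.

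Under submergence 7 of the 10 genes were higher in tcp21 than in Col and 1 lower, against 26.7% of all genes called, 12.3% higher and 14.4% lower. BIP2 had 83.8, 79.6 and 82.6 CPM in submerged tcp21, against 62.5, 60.3 and 49.8 CPM in submerged Col, a difference of 0.51 ± 0.09 (adjusted p = 0.000214). CRT1B had 120.1, 105 and 124 CPM in submerged tcp21, against 87.7, 86.6 and 71.8 CPM in submerged Col, a difference of 0.50 ± 0.08 (adjusted p = 2.75e-05). The groups were apart for both genes. PDIL1-1 differed by 0.49 ± 0.09 (adjusted p = 0.000115), CNX1 by 0.42 ± 0.08 (adjusted p = 0.000357), BIP1 by 0.37 ± 0.11 (adjusted p = 0.0137), CRT1A by 0.26 ± 0.07 (adjusted p = 0.00465) and SHD by 0.24 ± 0.07 (adjusted p = 0.0124), while bZIP60 was lower by 0.30 ± 0.10 (adjusted p = 0.0294). BIP3 at 0.25 ± 0.26 (adjusted p = 0.516) and CRT3 at 0.01 ± 0.08 (adjusted p = 0.92) were not called. The number of genes called dropped to 5 without submerged Col 3 or without submerged tcp21 2, with BIP1, SHD and bZIP60 lost each time (adjusted p from 0.0605 to 0.105). Without submerged tcp21 1, BIP1 and bZIP60 were lost (adjusted p of 0.0517 and 0.104), and bZIP60 without submerged Col 1 (adjusted p = 0.144). Of the 8 root markers 2 were higher in submerged tcp21 and 0 lower, with sums of 69.4 to 75.8 CPM, against 54.9 to 64.3 CPM in submerged Col, and their part in this comparison was not tested.

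The interaction for tcp21 was positive and called for 4 of the 10 genes, against 31.0% of all genes, 14.7% positive and 16.3% negative. It was 1.27 ± 0.34 (adjusted p = 0.00444) for BIP3, 0.40 ± 0.14 (adjusted p = 0.0352) for bZIP60, 0.37 ± 0.09 (adjusted p = 0.00317) for CRT1A and 0.30 ± 0.10 (adjusted p = 0.0227) for SHD. Each of these genes was relatively higher in tcp21 under submergence than its mock level and the Col response would give. The count dropped to 2 without submerged Col 3 or mock tcp21 3, as SHD and bZIP60 were lost. SHD was also lost without submerged tcp21 2 (adjusted p = 0.0779), and bZIP60 without any 1 of 4 other libraries and in a fit of only the groups compared (adjusted p = 0.0537).

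Libraries of the bak set differed in seed transcripts. The 9 seed storage and oil body markers summed to 0.488, 2.07 and 0.228 CPM in submerged bak1-3 bkk1-1 and to 251, 135 and 206 CPM in submerged Col. In mock seedlings they summed to 11, 0.389 and 0.0882 CPM in bak1-3 bkk1-1, against 1.32, 266 and 1.22 CPM in Col. Submerged Col and the second mock Col library thus stood apart from the other 8 libraries. Results that use mock Col are therefore given without that library too, the part of these markers was not tested, and the protocol does not say which libraries came from germinating seeds.

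In the bak set BIP3 showed the largest changes. It had 8.41, 4.56 and 3.23 CPM in submerged bak1-3 bkk1-1, 6.46, 4.22 and 3.57 CPM in mock bak1-3 bkk1-1 and 8.01, 14.2 and 4.81 CPM in submerged Col. It was nearly silent in mock Col, with 0.484, 0.111 and 0.505 CPM, which are 11, 3 and 12 counts. Mock Col thus stood alone below the other 3 groups, which overlapped one another. The response to submergence in Col was 4.63 ± 0.59 (adjusted p = 2.71e-05), and the difference of mock bak1-3 bkk1-1 from mock Col was 3.71 ± 0.60 (adjusted p = 0.00852). Without mock Col 2 they were 4.17 (adjusted p = 0.000155) and 3.25 (adjusted p = 0.0382). All of them rest on few counts in mock Col. In bak1-3 bkk1-1 the response of BIP3 was 0.18 ± 0.45 (adjusted p = 0.76), and under submergence the mutant differed from Col by -0.74 ± 0.44 (adjusted p = 0.483). The interaction for BIP3 was -4.45 ± 0.75 (adjusted p = 0.0824) with edgeR, which is not called, while DESeq2 gave -4.43 with an adjusted p of 6.92e-08. Leaving out submerged bak1-3 bkk1-1 1, submerged Col 2 or submerged Col 3 brought the edgeR adjusted p to 0.0475, 0.0467 and 0.0314, and leaving out mock Col 2 brought it to 0.163.

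CRT3 behaved apart from the other calreticulin genes in mock seedlings and in the response of Col. In the response of the mutant CRT1B fell as well. CRT3 had 76.2, 71.9 and 63.0 CPM in mock bak1-3 bkk1-1, against 45.5, 48.4 and 53.4 CPM in mock Col, and the groups did not overlap. The difference was 0.52 ± 0.11 (adjusted p = 0.0326). BIP3 and CRT3 were the 2 genes of the 10 called higher in the mock mutant, with 0 lower, where 0.856% of all 20666 genes tested were called, 0.721% higher and 0.135% lower. The call of CRT3 was lost without mock bak1-3 bkk1-1 1, mock bak1-3 bkk1-1 2, mock Col 1 or mock Col 2 (adjusted p from 0.148 to 0.192), and that of BIP3 held without any 1 library (adjusted p up to 0.0474). The other 8 genes had differences between 0.03 ± 0.09 for CRT1A and 0.20 ± 0.10 for PDIL1-1 and were not called (adjusted p of 0.622 or more). CRT3 fell under submergence, to 37.6, 42.7 and 40.1 CPM in the mutant and 42.4, 30.8 and 34.0 CPM in Col, below every mock library of its genotype, by 0.81 ± 0.12 (adjusted p = 1.03e-05) in the mutant and 0.46 ± 0.12 (adjusted p = 0.00294) in Col. Under submergence the genotypes overlapped, and the difference of 0.17 ± 0.12 (adjusted p = 0.554) was not called.

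Submergence raised 6 of the 10 genes in Col of the bak set and lowered CRT3, against 49.4% of all genes called, 25.4% higher and 24.1% lower. CNX1 had 183, 206 and 278 CPM in submerged Col, against 166, 148 and 155 CPM in mock Col, a change of 0.51 ± 0.16 (adjusted p = 0.0175). BIP1 had 232, 247 and 343 CPM in submerged Col, against 221, 199.7 and 194 CPM in mock Col, a change of 0.42 ± 0.15 (adjusted p = 0.0285). The groups did not overlap, but the third submerged library was well above the other two for both genes. SHD rose by 0.32 ± 0.10 (adjusted p = 0.0135), CRT1A by 0.31 ± 0.09 (adjusted p = 0.0113) and CRT1B by 0.25 ± 0.10 (adjusted p = 0.0421). PDIL1-1 at 0.23 ± 0.10 (adjusted p = 0.0684), BIP2 at 0.19 ± 0.20 (adjusted p = 0.454) and bZIP60 at -0.22 ± 0.16 (adjusted p = 0.26) were not called. PDIL1-1 was called without submerged mutant 1 (adjusted p = 0.0405) or submerged Col 1 (adjusted p = 0.0445), and bZIP60 without mock Col 3 (adjusted p = 0.0385). Without submerged Col 3 the number called dropped to 3, with BIP1, CNX1, SHD and CRT1B lost (adjusted p from 0.0908 to 0.188), and without mock Col 2 it dropped to 4, with BIP1, CNX1 and CRT1A lost (adjusted p from 0.05 to 0.078). BIP1 was also lost without mock Col 3 (adjusted p = 0.0829). CRT1B was lost with DESeq2 (adjusted p = 0.0544), RLE factors (0.0592), upper quartile factors (0.104) and a fit of only the groups compared (0.0666), and without any 1 of 8 libraries (up to 0.145). The calls of BIP3 and CRT3 held without any 1 library. All 6 leaf photosynthesis markers fell in the same comparison, with sums of 18000 to 20500 CPM in submerged Col, against 38580 to 41160 CPM in mock Col, and their part in the chaperone changes was not tested.

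In bak1-3 bkk1-1 submergence raised 0 of the 10 genes and lowered 2, CRT3 and CRT1B, against 52.7% of all genes called, 26.3% higher and 26.4% lower. CRT1B had 123, 123 and 104 CPM in submerged mutant libraries, against 146, 135 and 143 CPM in mock mutant libraries, a change of -0.28 ± 0.10 (adjusted p = 0.0208). The groups did not overlap, though the call was lost without mock mutant 1, mock mutant 3 or submerged mutant 3 (adjusted p up to 0.117). The other 8 genes had changes between -0.29 (BIP2) and 0.18 (BIP3), which did not pass the test. Under submergence CRT1B was the 1 gene of the 10 called lower in the mutant than in Col and 0 were higher, against 1.38% of all genes called, 0.629% higher and 0.750% lower. The other 9 genes ranged from -0.74 ± 0.44 for BIP3 to 0.22 ± 0.16 for bZIP60 and were not called (adjusted p of 0.174 or more). The difference of CRT1B was -0.41 ± 0.10 (adjusted p = 0.0376), a call lost in a fit of only the groups compared (adjusted p = 0.117) and without any 1 of 9 libraries (adjusted p up to 0.134). These same groups differed in seed storage and oil body markers, as given above, and the part of those markers was not tested. The interaction of genotype and submergence was called by edgeR for 0 of the 10 genes, against 0.0387% of all genes, 0.00968% positive and 0.0290% negative. DESeq2 called 1, BIP3. In simulated counts edgeR recovered 56 of 100 genes changed 2-fold in this interaction, so genes not called here may still differ. All interaction values but that of bZIP60 were negative, from -0.30 ± 0.21 for BIP1 to -4.45 ± 0.75 for BIP3. The fall of all 6 leaf photosynthesis markers was seen in the mutant as well, with sums of 12100 to 17230 CPM in submerged mutant libraries, against 34430 to 37130 CPM in mock mutant libraries.

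**Figure D3:**
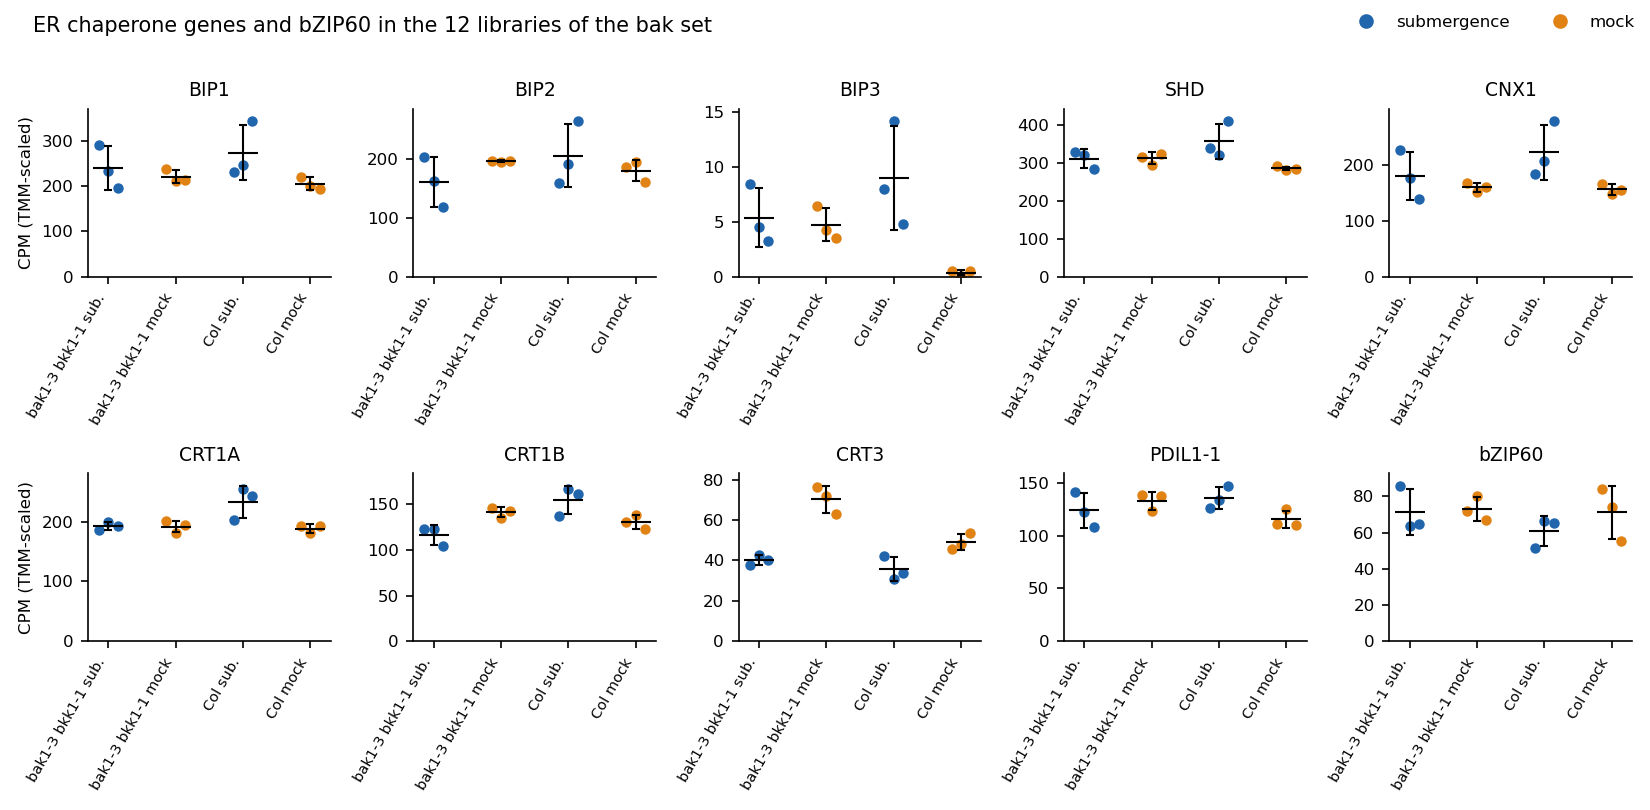
CPM of each gene in the 12 libraries of the bak set, scaled by TMM factors, with 1 dot per library and the mean ± SD of each group (n = 3) as a bar with whiskers. BIP3 is near 0 in mock Col and above it in the other 3 groups, and CRT3 is highest in mock bak1-3 bkk1-1.

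The Col seedlings of both sets carry the same labels for strain, age and treatment, and their responses to submergence are given side by side because most differ in direction. The names of the submerged libraries differ, with S3 in the bak set and W in the tcp set. The labels used here do not explain these names, so the treatments may not have been alike. BIP3 changed by 4.63 ± 0.59 in Col of the bak set and by -2.40 ± 0.23 in Col of the tcp set. CNX1 changed by 0.51 ± 0.16 in the bak set and by -0.71 ± 0.08 in the tcp set. BIP1 changed by 0.42 ± 0.15 in the bak set and by -0.38 ± 0.11 in the tcp set, and SHD by 0.32 ± 0.10 in the bak set and by -0.31 ± 0.07 in the tcp set. CRT1B changed by 0.25 ± 0.10 in the bak set and by -0.22 ± 0.08 in the tcp set. Without submerged Col 3 of the bak set, the rises of CNX1, BIP1, SHD and CRT1B there were not called. PDIL1-1 at 0.23 ± 0.10 and BIP2 at 0.19 ± 0.20 were not called in the bak set, against -0.35 ± 0.09 and -0.49 ± 0.09 in the tcp set. For CRT3 the signs were turned, with -0.46 ± 0.12 for Col of the bak set and 0.40 ± 0.08 for Col of the tcp set. bZIP60 was called in neither, at -0.22 ± 0.16 for the bak set and 0.12 ± 0.10 for the tcp set. CRT1A did not differ in direction, at 0.31 ± 0.09 for the bak set and 0.10 ± 0.07 (not called) for the tcp set. BIP3 in mock Col was already unlike, at 0.367 ± 0.222 CPM for the bak set and 8.83 ± 0.463 CPM for the tcp set (SD, n = 3 each). The leaf photosynthesis markers also differed in direction, with 6 of 6 lower in submerged Col of the bak set and 4 of 6 higher in submerged Col of the tcp set. Seed storage and oil body markers summed to 135 to 251 CPM in submerged Col of the bak set. In submerged Col of the tcp set they summed to 0.705 to 0.844 CPM, and the part of either list was not tested. The tables were deposited and scaled separately, so the difference between the sets was not tested, and set and experiment cannot be told apart.

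**Figure D4:**
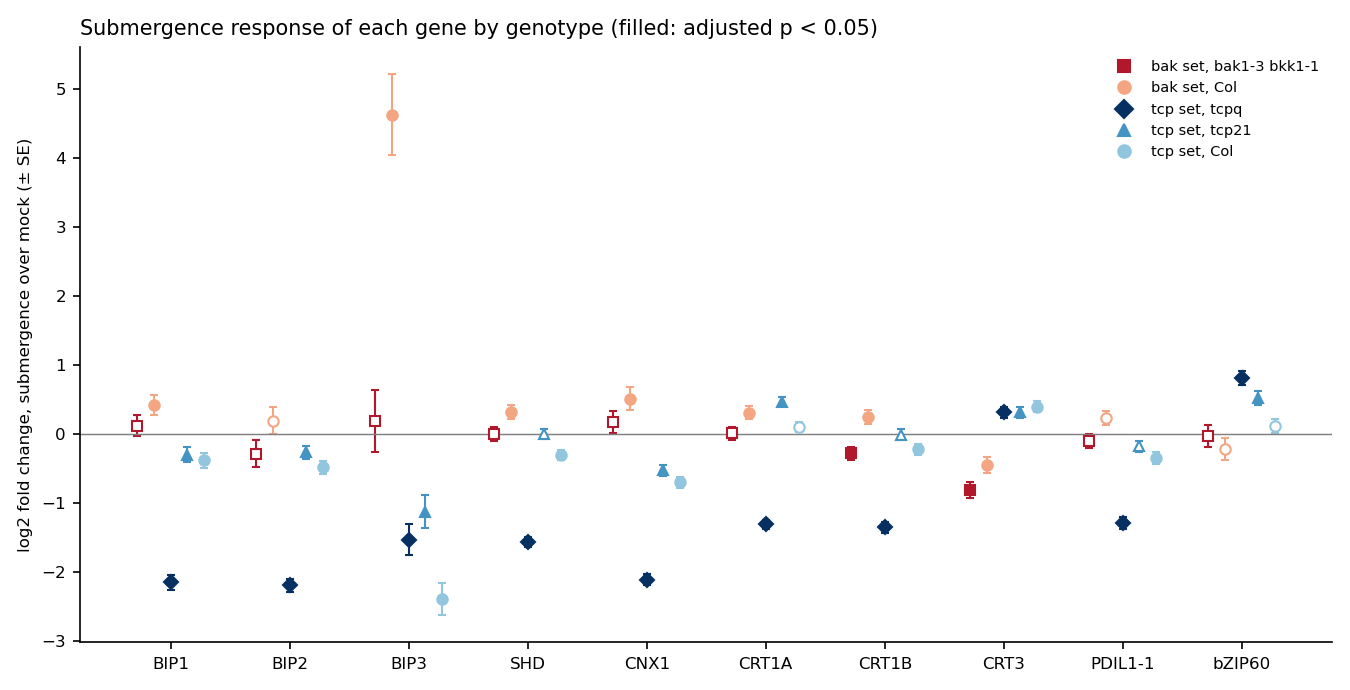
Log2 fold change of submergence over mock for each gene (y axis, ± SE from the edgeR fit, n = 3 against 3) in the 5 genotypes, with filled symbols at an adjusted p below 0.05. BIP3 is at 4.63 in Col of the bak set and at -2.40 in Col of the tcp set, and 7 chaperones in tcpq lie between -1.29 and -2.198.

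Other genes of the pathway were counted from lists chosen by function, and each count is to be read against the shares of all genes. The lists were chosen with earlier results of these data known, so the counts are descriptive. In mock tcpq against mock Col, the ER co-chaperones and lectin cycle had 11 of 12 genes higher and 1 lower, with a median of 0.745, where 25.8% of all genes were higher and 22.6% lower. P58IPK, an ER J-protein that works with BIP, differed by 1.65 ± 0.11 (adjusted p = 3.47e-13), and its fellow ERDJ3B by 1.18 ± 0.08 (adjusted p = 1.37e-12). The lower gene was ERDJ2B, a J-protein of the translocon, with -0.50 ± 0.10 (adjusted p = 0.000189). Other disulfide isomerases and oxidoreductins had 7 of 10 higher and 0 lower, led by PDIL2-2 with 2.05 ± 0.14 (adjusted p = 3.21e-13). The ER translocon had 6 of 9 higher and 0 lower, while ER-associated degradation had 3 of 9 higher and 2 lower, near the shares of all genes. HRD1B, an E3 ligase that marks misfolded ER proteins, was the highest of the degradation list at 1.45 ± 0.09 (adjusted p = 3.89e-14). P58IPK, ERDJ3B, ERDJ2B and PDIL2-2 were chosen after their values were seen.

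Of 9 sensors and factors tested, 1 was higher and 3 lower in mock tcpq, where 25.8% of all genes were higher and 22.6% lower, and the median of 0.0601 was near that of all genes, 0.0366. The lower ones were NAC062, a membrane-anchored factor, with -2.61 ± 0.14 (adjusted p = 2.84e-12), IRE1A, the kinase that splices bZIP60 mRNA, with -0.40 ± 0.08 (adjusted p = 0.000214), and bZIP28 with -0.37 ± 0.09 (adjusted p = 0.000772). The higher one was bZIP17 with 0.49 ± 0.12 (adjusted p = 0.000831). These 4 genes were chosen after their values were seen. The mRNA level of bZIP60 was lower in mock tcpq too, as given above. Counts per gene show neither the splicing of bZIP60 mRNA nor the move of bZIP28 to the nucleus, so the activity of these factors was not tested.

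Chaperones outside the ER were higher as well, so the ER genes were not alone in it. Of 14 HSP90 and HSP70 genes of the cytosol, plastids and mitochondria, 12 were higher in mock tcpq and 0 lower, with a median of 1.16. The mitochondrial mtHSC70-1 differed by 1.44 ± 0.08 (adjusted p = 3.18e-15), the plastid HSP90.5 by 1.15 ± 0.06 (adjusted p = 5.93e-15) and the plastid cpHSC70-2 by 1.36 ± 0.08 (adjusted p = 2.5e-14). ERSE or ERSE-II was in 0 of these 14 windows, 5 of 9 of ER-associated degradation and 3 of 12 of the co-chaperones, where 1.17% of all windows hold either. It was also in 2 of 10 windows of the other disulfide isomerases and oxidoreductins, 1 of 9 of the translocon and 1 of 10 of the sensors and factors. In submerged over mock tcpq, 12 of 12 co-chaperone genes and 8 of 10 disulfide isomerases and oxidoreductins fell, and 0 rose, where 30.6% of all genes fell and 32.8% rose. Among the 14 chaperones outside the ER 7 fell and 4 rose, mtHSC70-1 by 2.17 ± 0.08 (adjusted p = 1.45e-19) and HSP90.5 by 1.82 ± 0.06 (adjusted p = 8.34e-20) among those that fell. The risers were the cytosolic genes HSP90.1, HSP70-2, HSP70-3 and HSP70-4, from 1.14 to 2.19, named after their values were seen.

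**Figure D5:**
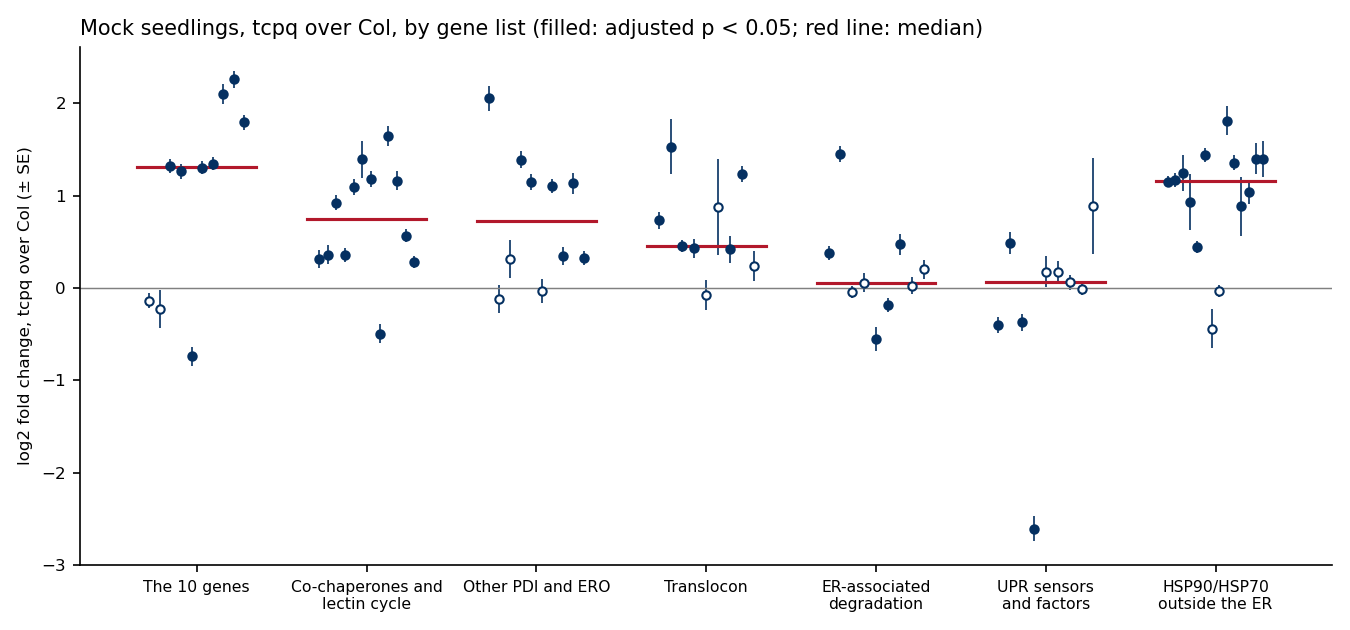
Log2 difference of mock tcpq over mock Col (y axis, ± SE from the edgeR fit, n = 3 against 3), 1 dot per tested gene, for the 10 genes and 6 lists of the pathway and of chaperones outside the ER. Filled dots have an adjusted p below 0.05 and red lines are list medians, which are 1.31 for the 10 genes, 1.16 for chaperones outside the ER and 0.0601 for sensors and factors.

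Submergence of Col in the bak set raised genes of several lists. The translocon had 7 of 9 genes higher and 0 lower, ER-associated degradation 7 of 9 and 0, the co-chaperones 6 of 12 and 0, and the sensors and factors 5 of 10 and 1, where 25.4% of all genes were higher and 24.1% lower. The SEC61 gamma gene AT3G48570 rose by 1.57 ± 0.17 (adjusted p = 4.2e-07) and HRD1B by 1.15 ± 0.13 (adjusted p = 1.18e-06). The co-chaperone count dropped to 3 without submerged Col 3. In bak1-3 bkk1-1, where 0 of the 10 genes rose, the translocon had 8 of 9 higher and 0 lower, and ER-associated degradation 6 of 9 and 0, where 26.3% of all genes were higher and 26.4% lower. There AT3G48570 rose by 1.90 ± 0.17 (adjusted p = 4.31e-08), HRD1B by 1.00 ± 0.13 (adjusted p = 4.91e-06) and the J-protein gene ERDJ3A by 2.42 ± 0.30 (adjusted p = 4.83e-06). Col of the tcp set had 0 of 12 co-chaperones higher and 8 lower, and 0 of 9 degradation genes higher and 4 lower, while its translocon had 6 of 9 higher and 1 lower, where 27.1% of all genes were higher and 22.9% lower. Sensors and factors there had 4 of 9 higher and 3 lower, not far from those shares. Among the higher were BAG7, with 0.73 ± 0.07 (adjusted p = 5.53e-10), and BI1, a suppressor of cell death, with 0.84 ± 0.08 (adjusted p = 6.64e-10).

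Levels of the genes relative to each other are given as CPM per kilobase of spliced exons, joined over all annotated transcripts of a gene. In mock tcpq they ran from 195 ± 4.32 for CRT1A and 189 ± 12.01 for SHD through 174 ± 7.65 for CNX1, 170.2 ± 11.96 for BIP1, 142 ± 12.04 for BIP2, 109 ± 4.26 for CRT1B and 83.4 ± 4.96 for PDIL1-1 to 27.6 ± 1.51 for bZIP60, 24.5 ± 0.513 for CRT3 and 3.56 ± 0.688 for BIP3 (SD, n = 3). The values of CRT1A and SHD lay within their spread of each other, as did those of CNX1 and BIP1 and, in part, of SHD and CNX1. In mock Col of the tcp set CRT1A with 79.0 ± 3.09 and SHD with 74.3 ± 1.84 again led, followed by CNX1 with 50.1 ± 1.64 and bZIP60 with 46.1 ± 2.17. BIP1 with 39.7 ± 2.42 and BIP2 with 29.6 ± 2.17 were lower than bZIP60 there, per kilobase, and several times higher than it in mock tcpq. The order in mock Col may depend on the length used, and reads shared by BIP1 and BIP2 may not have been counted. BIP3 was the lowest of the 10 per kilobase in all 10 groups.

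Across the groups of the tcp set, BIP2 averaged 386 ± 32.8 CPM in mock tcpq, 98.9 ± 12.4 in mock tcp21, 84.2 ± 6.11 in submerged tcpq, 82.0 ± 2.18 in submerged tcp21, 80.6 ± 5.91 in mock Col and 57.5 ± 6.80 in submerged Col (SD, n = 3 each). From submerged tcpq down to mock Col, neighbours in this order lay within their spread, while mock tcpq was far above and submerged Col below. For bZIP60 mock tcpq was lowest, with 34.0 ± 1.85 CPM, followed upwards by mock tcp21 with 35.1 ± 7.36, submerged tcp21 with 50.1 ± 2.93, mock Col with 56.7 ± 2.67, submerged tcpq with 59.8 ± 3.12 and submerged Col with 61.6 ± 4.67. The lowest 2 of these lay within their spread, as did the highest 3. Across the groups of the bak set bZIP60 averaged at most 73.0 ± 6.80 CPM, in mock bak1-3 bkk1-1, and at least 61.1 ± 8.32 CPM, in submerged Col, and was called in none of the 5 comparisons.

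BIP1 and BIP2 are near copies, and their counts may share reads. Their coding sequences are 95.9% identical, and 12.5% of the 100-base windows of BIP1 occur exactly in BIP2. BIP3 is 70.6% identical to BIP1 and shares none of those windows with either. BIP2 made up 37.6% to 49.3% of the BIP1 and BIP2 counts in the bak set and 38.4% to 45.9% in the tcp set, so both genes contributed in every library. With the pair summed, the difference of mock tcpq from mock Col stayed called, and the rise in Col of the bak set did not (log2 0.315, adjusted p = 0.12). CRT1A and CRT1B are 83.4% identical and share no 100-base window. In the annotation used here, no gene overlaps any of the 10.

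BIP1, BIP2, SHD, CNX1, CRT1A, CRT1B and PDIL1-1 varied together across libraries. This group was picked after the values were seen, and its correlations describe libraries that share treatment and genotype. The median Pearson r of log2 CPM over the 21 pairs was 0.963 in the 18 libraries of the tcp set, from 0.831 to 0.993, and 0.69 in the 12 libraries of the bak set, from 0.36 to 0.97. BIP2 and bZIP60 had r = -0.692 in the tcp set and 0.383 in the bak set. Mock tcpq averaged 386 CPM for BIP2, against 57.5 to 98.9 CPM in the other groups of the tcp set. How far that group carries the r values of the tcp set was not tested. BIP3 and CRT3 had r = -0.866 in the tcp set and -0.209 in the bak set.

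Genes outside the 10 with the most similar pattern were ranked by the smaller of the 2 correlations, that over the 12 libraries of the bak set and that over the 18 of the tcp set, among 20069 genes. For BIP2 the first was UNE5, another name of the disulfide isomerase gene PDIL2-1, with r = 0.855 in the bak set, against 0.988 in the tcp set. AT4G16660 followed with 0.849 and 0.923, then TRA2, a transaldolase gene, with 0.815 and 0.878, KAB1, a potassium channel beta subunit gene, with 0.814 and 0.943, and PHT3;1, a mitochondrial phosphate transporter gene, with 0.799 and 0.893. For BIP3 the genes were AT5G07820 with 0.859 and 0.881, AT2G37750 with 0.846 and 0.839, AT5G59260, a lectin receptor kinase gene, with 0.823 and 0.828, UGT72E1, a glucosyltransferase gene, with 0.819 and 0.86, and BAS1, a brassinosteroid-inactivating enzyme gene, with 0.84 and 0.811. For bZIP60 they were FRB1 with 0.902 and 0.939, AT1G19020 with 0.89 and 0.95, AT3G07195 with 0.874 and 0.917, AT5G18400, a homologue of yeast DRE2, with 0.89 and 0.862, and PERK9, a receptor kinase gene, with 0.86 and 0.88.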

How the data were processed

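Poly-A RNA of whole seedlings was sequenced on an Illumina platform, per the labels' protocols. The authors deposited raw counts per gene in 2 tables. The submitters' processing notes name fastp 0.23.1, STAR 2.7.9a and the genome build TAIR10. They name no counting tool, and how strand and multiply mapping reads were treated is not stated in the labels. Of the 32833 gene IDs, 32548 matched the RefSeq annotation of build TAIR10.1, which supplied symbols, lengths, coordinates and sequences, since the count tables hold none.

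Each set was fitted alone with edgeR 4.0.16 in R 4.3.3 (filterByExpr, TMM factors, robust quasi-likelihood test over all groups of the set, 1 coefficient per group), with Benjamini-Hochberg adjustment over all genes and a threshold of 0.05. Fold changes are log2 values ± SE, the SE taken from the fold change and its F statistic, and levels are CPM scaled by TMM factors, computed here from the deposited counts. For likeness of pattern, log2 CPM used a prior count of 2. Alternatives were DESeq2 1.42.0, RLE and upper quartile factors, no filter, fits of the groups compared, a replicate block, BIP1 and BIP2 summed, and each library left out in turn. The edgeR and DESeq2 tests were first tried on simulated counts. These were drawn with the spread edgeR estimated, without any submergence effect, and with few genes changed, in mock bak1-3 bkk1-1 or mock tcpq. In the simulation, false calls made up 1.56% to 6.62% of the edgeR calls and 11.8% to 16.7% of the DESeq2 calls. For the bak interaction the shares were 1.56% with edgeR and 13.8% with DESeq2. There edgeR recovered 56 of 100 genes changed 2-fold and 7 of 100 changed less, and DESeq2 65 and 16. The real data differ from that setting, so these shares need not hold for them. Library totals above give the depth.

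The 10 genes and all lists were chosen with earlier results of these data known. The text gives all 10 in each comparison, singly or by their range, and names list genes from among the 4 called with the smallest adjusted p per comparison, and others only where said. Libraries of 1 group were not duplicates, since their counts differed by 3.5 to 27.9 times the Poisson expectation (chi-square per degree of freedom).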

Additional observations from a re-analysis of the deposited data

Results flagged for a closer look

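The tests of a difference between responses to submergence were passed by 9 of the 10 genes for tcpq against Col and by 4 of the 10 for tcp21 against Col, in the edgeR interaction term with Benjamini-Hochberg adjustment. Of all genes, 34.6% passed for tcpq and 31.0% for tcp21, so the count for tcp21 is near the share of all genes. In tcpq the response was more negative than in Col for BIP1 at -1.77 (adjusted p = 4.57e-09), BIP2 at -1.71 (adjusted p = 4.13e-11), CNX1 at -1.41 (adjusted p = 6.37e-11), CRT1A at -1.41 (adjusted p = 1.7e-12), SHD at -1.27 (adjusted p = 5.07e-11), CRT1B at -1.13 (adjusted p = 2.09e-09) and PDIL1-1 at -0.942 (adjusted p = 3.07e-07). It was more positive for BIP3 at 0.865 (adjusted p = 0.0397) and bZIP60 at 0.697 (adjusted p = 0.00033). That call of BIP3 was lost in some fits with 1 library left out (adjusted p up to 0.135). In tcp21 the response was more positive than in Col for BIP3 at 1.27 (adjusted p = 0.00444), bZIP60 at 0.399 (adjusted p = 0.0352), CRT1A at 0.370 (adjusted p = 0.00317) and SHD at 0.301 (adjusted p = 0.0227). Leaving out 1 library brought the count for tcp21 down to 2, with SHD (adjusted p up to 0.0779) and bZIP60 (adjusted p up to 0.127) lost. Both mutants are set against the same Col libraries. For the 7 chaperones in tcpq, the libraries that stand apart are the 3 of mock tcpq, whose summed CPM of the 10 genes ran from 2558 to 2818, against 940.2 to 954 in mock Col.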

How the results depend on the processing

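In the tcp set all 10 genes in submerged over mock tcpq and 8 in mock tcpq over mock Col stayed called without any 1 library. Numbers of genes called moved as follows when 1 library was left out: 8 to 9 for the interaction of tcpq, 7 to 8 for submergence in Col of the tcp set, 5 to 8 for submergence in tcp21, 4 to 7 for mock tcp21 over Col, 5 to 8 for submerged tcp21 over Col, 3 to 5 for submerged tcpq over Col and 2 to 4 for the interaction of tcp21. In the bak set they were 3 to 8 for submergence in Col, 1 to 2 for submergence in bak1-3 bkk1-1, 1 to 2 for the mock mutant over Col, 0 to 1 for the submerged mutant over Col and 0 to 1 for the interaction.

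Replicate numbers did not pair the libraries: residuals of libraries with the same number correlated at -0.0927 to 0.0711 in the bak set and -0.0761 to 0.0681 in the tcp set. With a replicate block 1 gene was called in the mock mutant over Col, where CRT3 was lost (adjusted p = 0.0616). In a fit of only the groups compared 0 were called in the submerged mutant over Col. DESeq2 called 1 in the bak interaction. For these 3 the main counts are 2, 1 and 0, and the cause was not tested. Over all genes, the mock mutant over Col had 177 calls, against 318 with DESeq2 and 278 in a fit of only the groups compared. The submerged mutant over Col had 285, against 675 with DESeq2. The bak interaction had 8, against 95 with DESeq2, 13 with upper quartile factors and 1 with a replicate block.

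Values that changed sign were not called in the main fit. They were, for submergence in bak1-3 bkk1-1, BIP1 (-0.0572 with BIP1 and BIP2 summed), CRT1A (-0.0783 with upper quartile factors, which moved the median of all genes to -0.102) and SHD (0.000329 with no filter), and, for submergence in tcp21, SHD (0.00221 with DESeq2 and 0.00249 with RLE factors). Leaving out 1 library gave ranges across 0, for submergence in bak1-3 bkk1-1, of -0.0418 to 0.25 (BIP1), -0.296 to 0.473 (BIP3), -0.0206 to 0.33 (CNX1), -0.0307 to 0.0408 (CRT1A), -0.0457 to 0.0613 (SHD) and -0.19 to 0.0454 (bZIP60). For the mock mutant over Col they were -0.00697 to 0.0782 (CNX1), -0.00534 to 0.0651 (CRT1A) and -0.117 to 0.174 (bZIP60), and for the submerged mutant over Col -0.349 to 0.00646 (BIP1). Others were -0.0341 to 0.342 (BIP2, submergence in Col of the bak set), -0.0702 to 0.0569 (CRT1B) and -0.0534 to 0.0405 (SHD) for submergence in tcp21, -0.0467 to 0.0749 (CRT3, submerged tcp21 over Col), -0.09 to 0.0185 (bZIP60, submerged tcpq over Col) and -0.0539 to 0.207 (BIP1, interaction of tcp21). Of the fold changes of the 10 genes, 848 kept direction and call outside these leave-outs, 10 lost a call and 5 gained one. BIP3 in mock Col of the bak set, at 3 to 12 counts, is limited by depth.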

Other observations

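Further list genes named by their adjusted p moved in the comparisons of tcp21 and tcpq with Col. In mock tcp21 the membrane-anchored factor gene NAC062 was lower by 2.04 ± 0.13 (adjusted p = 1.43e-10), which is the gene with the lowest value of the sensors and factors in mock tcpq as well, where Col libraries are shared. ERDJ2B, a J-protein gene of the translocon, was lower in mock tcp21 by 0.89 ± 0.10 (adjusted p = 5.15e-08), and the plastid chaperone gene HSP90.5 by 0.49 ± 0.06 (adjusted p = 1.81e-07), where HSP90.5 was higher in mock tcpq. Under submergence EBS1, the glucosyltransferase gene of the calnexin cycle, was higher than in Col in tcp21, by 0.49 ± 0.09 (adjusted p = 0.00013), and in tcpq, by 0.34 ± 0.09 (adjusted p = 0.00616). The SEC61 alpha gene AT1G78720 was higher in submerged tcpq than in submerged Col by 1.51 ± 0.35 (adjusted p = 0.00329), and ERDJ3A by 0.89 ± 0.20 (adjusted p = 0.00386).

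The interaction of tcpq with submergence was negative for chaperone genes outside the ER as well, HSP90.5 at -1.41 ± 0.09 (adjusted p = 5.45e-13), cpHSC70-2 at -1.46 ± 0.11 (adjusted p = 2.47e-11) and mtHSC70-1 at -1.36 ± 0.11 (adjusted p = 5.57e-11), and for the degradation ligase gene HRD1B at -1.54 ± 0.12 (adjusted p = 6.61e-11). Of the 14 chaperone genes outside the ER, 10 had a negative and 1 a positive interaction that passed the test, where 17.1% of all genes were negative and 17.5% positive. Of the co-chaperones 6 of 12 were negative and 0 positive, and of the other disulfide isomerases and oxidoreductins 8 of 10 and 0.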
